A study of Mus musculus with 12 samples.

Results

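The splicing factors and hnRNPs followed here are 68 genes of the 28668 symbols in the deposited table. They were taken by name, as symbols that begin with Srsf, Hnrnp, Sf3a, Sf3b, Snrp, U2af or Prpf, without Hnrnpa2b1 and without symbols that contain -ps. By name they comprise 19 hnRNPs, 13 snRNP proteins, 13 PRP factors, 11 SR proteins, 9 subunits of SF3A and SF3B, and 3 genes of the U2AF group. They were measured in round spermatids, the haploid cells that follow meiosis, which the study isolated by flow sorting, with cycloheximide present to hold ribosomes in place, from the testes of male mice aged 8 weeks. The control mice carried 1 intact copy of Igf2bp3 (Igf2bp3+/-) and the knockout mice carried none (Igf2bp3-/-). The knockout is a frameshift that was made with Cas9 in C57BL/6 zygotes and is present in every cell of the animal, and by the study's methods knockout males with impaired fertility were chosen. From each genotype there were 3 libraries of total RNA (RNA-seq) and 3 libraries of RNA bound by 4 or more ribosomes after a sucrose gradient (RNC-seq, for ribosome nascent-chain complexes), which makes 12 libraries in 4 groups. IGF2BP3 is an RNA-binding protein, and the design asks whether its loss alters the level of an mRNA, its amount on polysomes, or the ratio of the latter to the former, the translational efficiency (TE).

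The spliceosome removes introns from pre-mRNA. It is built from small nuclear RNAs with their proteins (the snRNPs), which carry a shared ring of Sm proteins and proteins particular to each snRNP. U2AF recognizes the end of the intron, SF3A and SF3B belong to the U2 snRNP and hold the branch site, and the PRP factors include the catalytic core protein PRPF8 and proteins that assemble and activate the complex. SR proteins mostly promote the use of exons, and hnRNPs package pre-mRNA and often oppose it. Testis is known for an unusually rich repertoire of splice forms, and transcription stops later in spermatid development, so that stored mRNA is translated after its synthesis has ended.

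The values are FPKM, a read density per transcript length and per library, so that levels can be set side by side between genes, and each value is a share of the library. All 68 genes were above 0 in 11 libraries, and the exception was U2af2, listed at 0 in Igf2bp3+/- RNC-seq replicate 1. Between 23554 and 25633 symbols were above 0 in the RNA-seq libraries, and between 21490 and 22797 in the RNC-seq libraries. Over 12265 genes the pairwise correlation of replicates ran from 0.961 to 0.990, lowest among the Igf2bp3-/- RNC-seq libraries. The Igf2bp3-/- RNC-seq replicate 2 stood apart for short and for long coding sequences, as given with the results below. The Igf2bp3 transcript itself lay at 38.2, 38.6 and 33.4 FPKM in Igf2bp3+/- RNA-seq and at 31.7, 32.5 and 31.4 in Igf2bp3-/- RNA-seq (log2 difference -0.20, SE 0.092, adjusted p = 0.34). A frameshift leaves a transcript that can still be counted, so this level is no check of the genotypes. The 6 round spermatid markers summed to between 604 and 754 FPKM in Igf2bp3+/- RNA-seq and to between 744 and 924 in Igf2bp3-/- RNA-seq.

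The 68 genes together took 0.254 to 0.271% of the summed FPKM in Igf2bp3+/- RNA-seq and 0.268 to 0.277% in Igf2bp3-/- RNA-seq. On polysomes their share was 0.213 to 0.229% in Igf2bp3+/- and 0.225 to 0.284% in Igf2bp3-/-, where replicate 1 was the highest. The symbol CT010467.1 alone held 15.9, 19.4 and 18.4% of summed FPKM in Igf2bp3+/- RNC-seq and 8.14, 11.5 and 14.6% in Igf2bp3-/- RNC-seq. In RNA-seq it held 9.21, 9.37 and 13.3% in Igf2bp3+/- and 8.08, 9.24 and 5.67% in Igf2bp3-/-. Its part in the shares of the 68 genes was not tested. In Igf2bp3+/- RNA-seq the median level of the 68 genes was 10.8 FPKM, against 1.95 over all genes tested. Of the 68 genes, 5 had a mean above 50 FPKM, 32 lay between 10 and 50, 25 between 1 and 10, and 6 at or below 1.

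Among the hnRNPs, Hnrnpf was the highest of all 68 genes, at 133, 132 and 134 FPKM in Igf2bp3+/- RNA-seq (mean 133 ± 0.88, SD, n = 3). It encodes a protein that binds G-rich stretches near exons, and 26.5% of its annotated exon sequence overlaps genes of the opposite strand. Hnrnpk, which binds C-rich RNA, followed at 84.9, 81.6 and 81.2 FPKM. The remaining 17 hnRNPs all had lower means. Hnrnpc, which packages nascent RNA and also reads m6A-dependent structure, was at 19.6, 21.2 and 15.3 FPKM in Igf2bp3+/- RNA-seq and at 19.5, 22.6 and 24.9 in Igf2bp3-/- RNA-seq. Its RNC-seq values were 18.4, 15.8 and 20.7 FPKM in Igf2bp3+/- and 17.7, 12.6 and 18.1 in Igf2bp3-/-, and the genotypes overlapped in both assays. Hnrnpa1, among the most studied splicing repressors, stood at 13.0, 11.4 and 11.5 FPKM, Hnrnpu, a scaffold protein, at 10.8, 9.85 and 8.13, and Hnrnpl, which binds CA-rich RNA, at 2.67, 2.03 and 1.94. The lowest hnRNPs were Hnrnpa0, with a mean of 0.214 FPKM, and Hnrnpul2, with a mean of 0.134 FPKM. The values of Hnrnpa0 in its 3 libraries (0.288, 0.20 and 0.152 FPKM) and of Hnrnpul2 (0.138, 0.182 and 0.082 FPKM) overlapped, so their order was within the spread.

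The SF3A and SF3B subunits had the highest median of the 6 role groups, at 22.1 FPKM. Sf3b2, which encodes a subunit that contacts RNA near the branch site, was at 83.5, 79.5 and 87.2 FPKM in Igf2bp3+/- RNA-seq, and Sf3b4, its binding partner, was at 76.6, 82.4 and 77.6. These values overlapped each other and those of Hnrnpk, so that the ranks 2 to 4 could not be ordered beyond their spread. Sf3b1, the large subunit that clamps the branch helix, had 34.3, 38.3 and 37.8 FPKM. Sf3b6, the subunit next to the branch adenosine, was the lowest of the group with 3.08, 2.52 and 1.51 FPKM.

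For the snRNP proteins the median was 20.8 FPKM. Snrpc, a protein of the U1 snRNP, was the highest at 71.4, 69.9 and 54.7 FPKM, and has 3 near-identical copies elsewhere in the genome. Snrpn, an Sm protein gene best known from neurons, was the lowest by mean at 2.61, 3.96 and 3.27 FPKM. Of its annotated exon sequence, 27.3% is shared with Snurf and Gm38393 on the same strand. The Sm paralog of Snrpn, Snrpb, lay at 8.34, 6.71 and 7.01 FPKM, above each Snrpn value.

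The medians of the SR proteins, PRP factors and U2AF genes were 10.6, 7.01 and 4.08 FPKM. Srsf5 was the highest SR protein gene (33.2, 31.1 and 29.7 FPKM) and Srsf12 the lowest (0.346, 0.357 and 0.804). The widely expressed SR proteins Srsf1, Srsf2 and Srsf3 had means of 2.32, 9.94 and 10.6 FPKM, and the libraries of Srsf2 and Srsf3 overlapped. Of the annotated exon sequence of Srsf2, 25.3% overlaps Mettl23 and Mfsd11 on the opposite strand. These lay at 16.1 to 18.1 and 46.9 to 55.1 FPKM in RNA-seq, so the Srsf2 value is uncertain. In the PRP group Prpf6, a tri-snRNP bridging protein, led with 29.2, 30.6 and 32.5 FPKM. Prpf39 was the lowest with 0.339, 0.207 and 0.342 FPKM. Prpf8 lay at 16.8, 20.1 and 20.1 FPKM, Prpf31, a tri-snRNP protein, at 9.49, 9.84 and 9.98, and Prpf19, a ubiquitin ligase of the spliceosome, at 1.27, 1.43 and 1.24. U2af2, the gene for the large U2AF subunit, was low at 0.463, 0.123 and 0.288 FPKM. It has a near-identical copy elsewhere in the genome (Gm5846), so its value is uncertain. The gene for the small subunit, U2af1, was higher at 4.24, 4.08 and 3.91 FPKM, and its relative U2af1l4 was higher still at 20.3, 19.1 and 19.1 FPKM. The groups of values of U2af2, U2af1 and U2af1l4 did not overlap. Of the annotated exon sequence of U2af1l4, 65.6% is shared with Gm49396 on the same strand, so reads could have been divided between both.

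**Figure D1:**
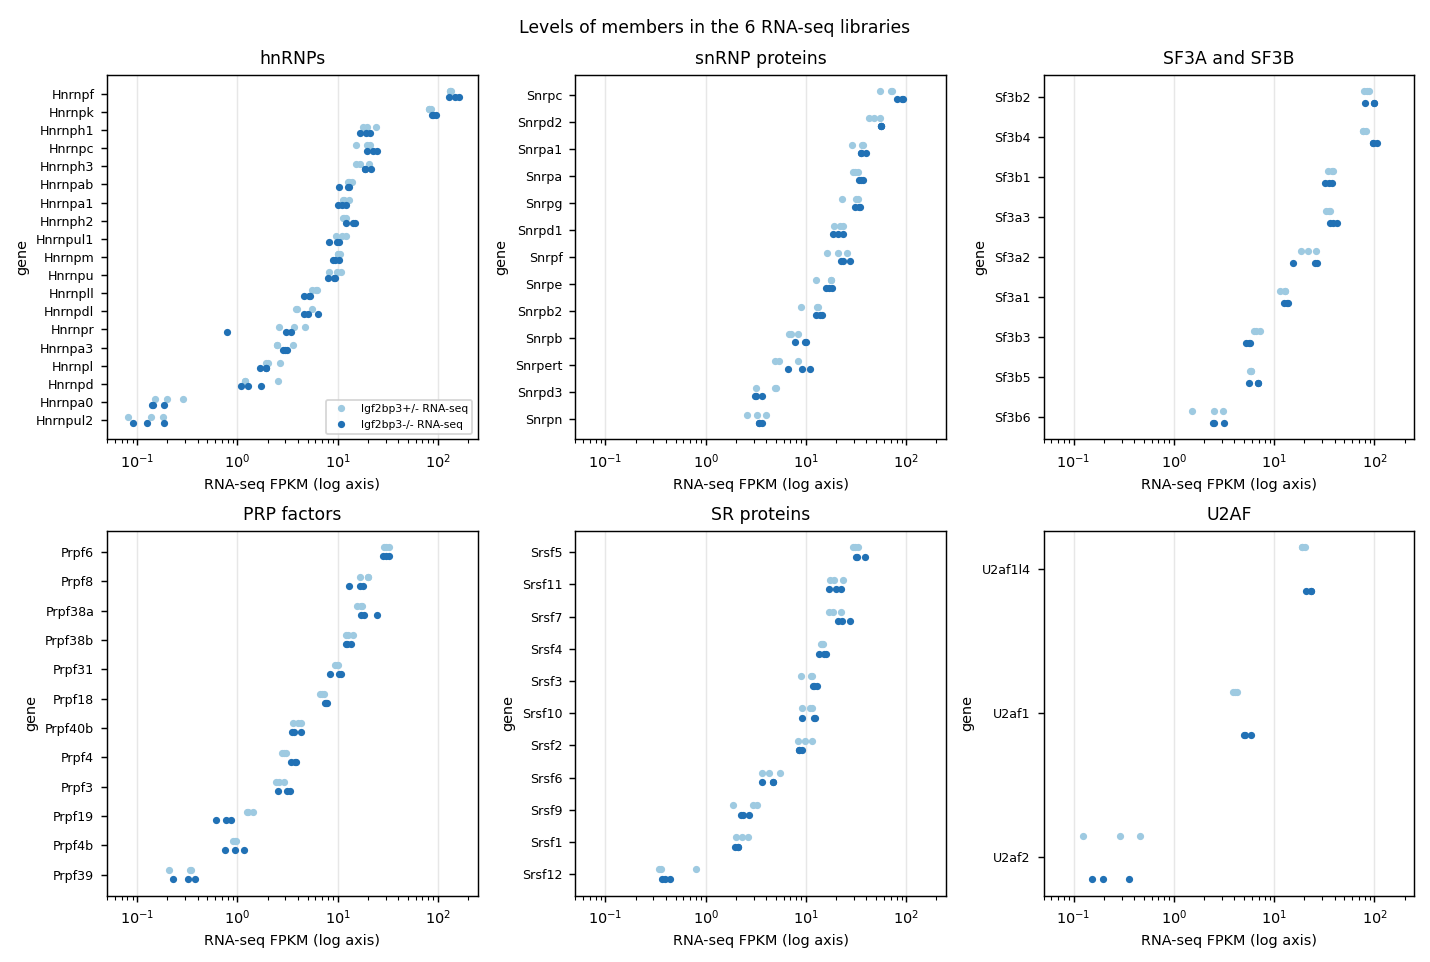
Level of 67 of the genes in the 6 RNA-seq libraries, in FPKM on a log axis, with 1 panel for each role group and genes ordered by their Igf2bp3+/- mean. Light points are the 3 Igf2bp3+/- libraries and dark points the 3 Igf2bp3-/- libraries. Levels range from the Hnrnpul2 mean of 0.134 to the Hnrnpf mean of 133 FPKM, and the genotypes lie close together for most genes.

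Polysome loading was taken as the log2 difference of RNC-seq minus RNA-seq within a genotype, with 66 of the 68 genes tested. U2af2 and Hnrnpul2 had an RNC-seq mean at or below the limit of 0.1 FPKM and were not tested. In Igf2bp3+/- mice 13 of the 66 genes (19.7%) had a higher FPKM on polysomes than in total RNA and 28 (42.4%) a lower one, by limma at an adjusted p under 0.05. Over all 18414 genes the shares were 18.2% higher and 25.2% lower, so the share of higher calls was near the background and that of lower calls was above it. The median difference was -0.24 for the 66 genes and -0.10 for all genes. With each library centred on its median the difference over all genes moved to 0.07, that of the 66 genes to -0.07, and the calls to 19 higher and 22 lower. The calls over all 18414 genes shifted the same way, from 3352 higher and 4641 lower to 4755 higher and 3685 lower. That centring turned the sign of 8 of the 66 differences, among them those of Hnrnpk, Hnrnpc and Hnrnph3, and of none that had passed the test. In bulk samples of this kind, fewer cells of a type and less RNA per cell cannot be told apart.

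The snRNP proteins and the hnRNPs lay on opposite sides. Of 13 genes of the snRNP group, 7 were higher on polysomes in Igf2bp3+/-, 1 was lower (Snrpa1) and 5 did not pass, with a median of 0.74. The 7 include Snrpert, annotated as a processed pseudogene, which is a near-identical copy of Snrpe and may share its reads. Of 18 hnRNPs, none was higher, 10 were lower and 8 did not pass, with a median of -0.68 (at an unadjusted p under 0.05 the counts were 0 and 11). PRP factors gave 1 higher and 8 lower of 13, with a median of -0.60. The SF3A and SF3B group gave 2 higher and 5 lower of 9, with a median of -0.83. SR proteins gave 2 higher and 4 lower of 11 (median -0.14), and of 2 U2AF genes 1 was higher.

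Among the genes that rose most on polysomes were 4 of the Sm ring and 2 small subunits of SF3B. Snrpe, an Sm protein gene (chr1:133603871-133610291, minus strand, GRCm38), was at 17.9, 17.9 and 12.6 FPKM in Igf2bp3+/- RNA-seq and at 72.6, 54.6 and 47.2 in RNC-seq. Every RNC-seq library was above every RNA-seq library (log2 difference 1.84, SE 0.20, adjusted p = 0.00029). Snrpg, another Sm protein gene (chr6:86371304-86379328, plus strand), went from 31.9, 33.3 and 22.8 FPKM to 105, 89.3 and 83.7 (1.67, SE 0.17, adjusted p = 0.00021). Snrpf, the next protein of the ring, went from 25.4, 20.8 and 16.1 FPKM to 61.9, 64.7 and 52.0 (1.53, SE 0.18), and 85.4% of its transcript overlaps genes of the opposite strand, among them Ccdc38. Snrpd2, an Sm protein gene without such overlap, went from 48.0, 54.5 and 42.2 FPKM to 105, 98.3 and 81.6 (0.97, SE 0.15, adjusted p = 0.0011). In all 4 genes the assays did not overlap.

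Sf3b5 (chr10:13005343-13009183, plus strand, a single exon), the gene for the smallest SF3B subunit by coding length here, had 5.91, 5.89 and 5.71 FPKM in Igf2bp3+/- RNA-seq and 15.5, 18.9 and 14.4 in RNC-seq (log2 difference 1.45, SE 0.15, adjusted p = 0.00021). Sf3b6 rose by 1.09 (SE 0.26) and Snrpb2, a U2 snRNP protein gene, by 1.15 (SE 0.23). Snrpert, annotated as a processed pseudogene (chr2:131322088-131322366, minus strand), had the highest difference of all, 2.03 (SE 0.27), from 4.95, 8.29 and 5.44 FPKM to 35.8, 19.2 and 23.1. It is a near-identical copy of Snrpe, so reads of the pair could have been divided between them, and its value is uncertain for that reason.

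Among the genes that fell most on polysomes were a PRP factor, an SF3B subunit, an SR protein and several hnRNPs. Prpf8 (chr11:75486816-75509449, plus strand, with 42 exons) fell from 16.8, 20.1 and 20.1 FPKM in Igf2bp3+/- RNA-seq to 3.89, 4.6 and 6.03 in RNC-seq (log2 difference -1.96, SE 0.19, adjusted p = 0.00016). Srsf4, an SR protein gene, fell from 14.2, 14.6 and 14.5 FPKM to 4.42, 6.89 and 5.59 (-1.36, SE 0.18). Of its annotated exon sequence, 43.0% overlaps Gm12992 on the opposite strand. Sf3b3, the gene for the large scaffold subunit of SF3B, fell from 7.21, 6.30 and 6.60 FPKM to 2.19, 2.67 and 3.07 (-1.32, SE 0.18). These groups did not overlap.

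Of the hnRNPs, Hnrnpr fell by 1.63 (SE 0.37, adjusted p = 0.0080), Hnrnph2 by 1.25 (SE 0.24), Hnrnph1 by 1.23 (SE 0.19), Hnrnpu by 1.2 (SE 0.22) and Hnrnpab by 1.18 (SE 0.16) on the log2 scale. Hnrnph1 and Hnrnph2 are close paralogs that bind G-rich RNA. Their paralog Hnrnph3 did not pass (-0.09, adjusted p = 0.66), nor did Hnrnpf (-0.25, adjusted p = 0.20). Hnrnpk (-0.01, SE 0.11) and Hnrnpc (-0.03, SE 0.17) were near 0. In the SR group Srsf6 had the largest fall of all 66 genes, -2.19 (SE 0.25, adjusted p = 0.00034), from 5.54, 3.62 and 4.25 FPKM to 1.10, 0.959 and 0.660, and is named here after its values were seen, since its RNC-seq mean was under 1 FPKM. Srsf7 (0.74, SE 0.18) and Srsf3 (0.62, SE 0.17) rose, and Srsf1 fell by 0.86 (SE 0.21). Srsf2, with the opposite-strand overlap given above, had a difference of 0.01 (95% interval -0.34 to 0.37).

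**Figure D2:**
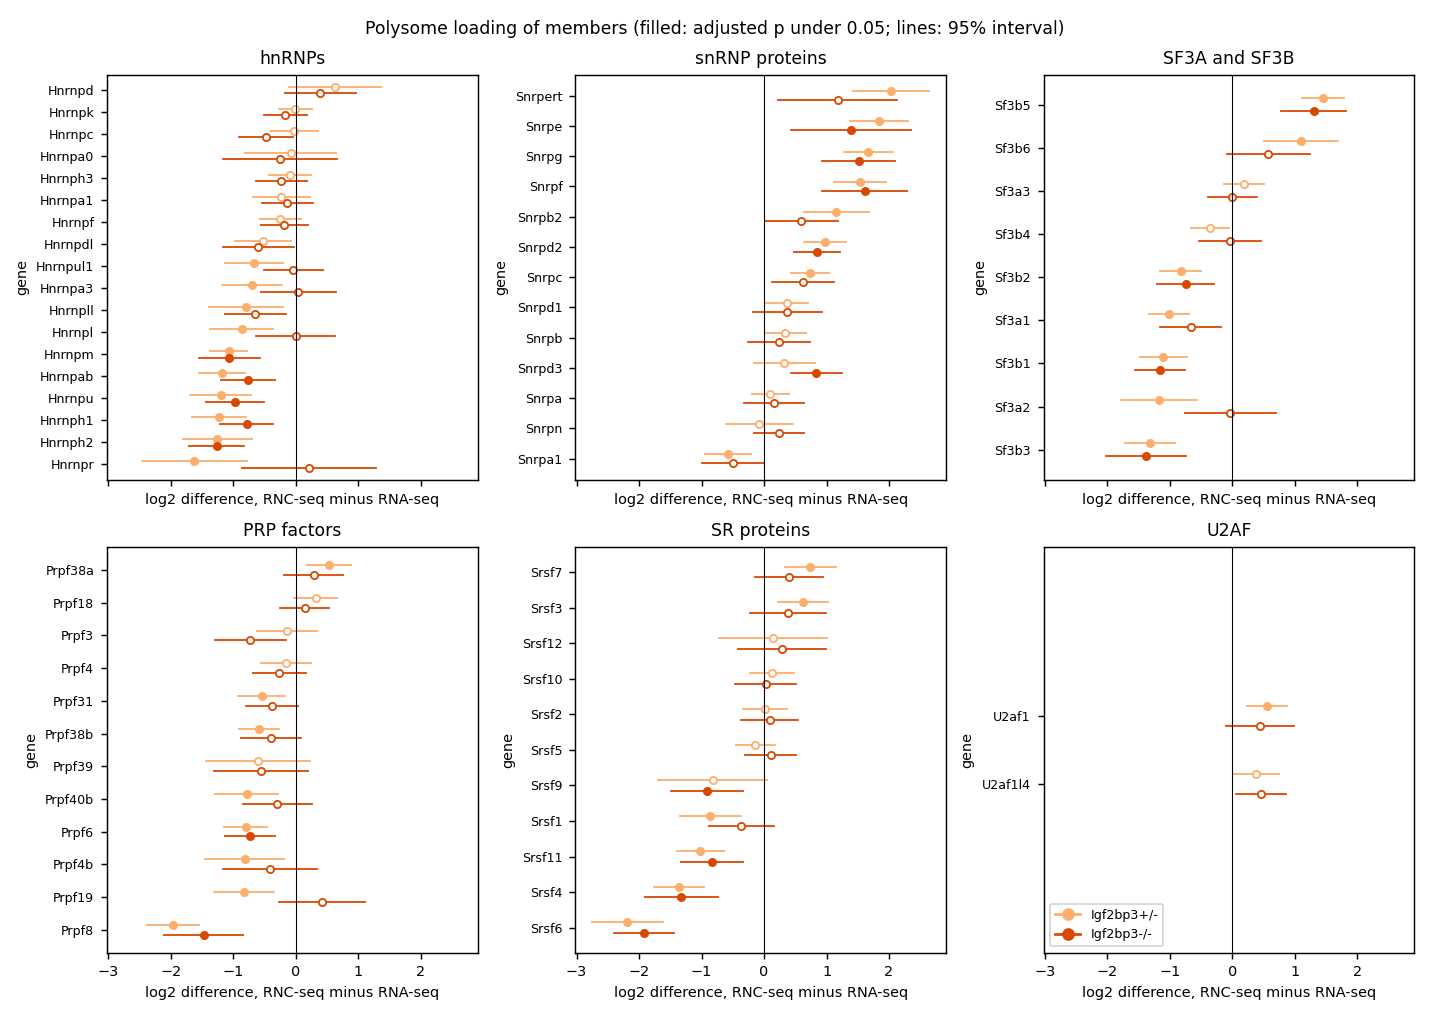
Polysome loading of 65 of the genes as the log2 difference of RNC-seq minus RNA-seq (x axis) in Igf2bp3+/- (light) and Igf2bp3-/- (dark), by role group. Points are the fitted difference of 3 libraries against 3, lines the 95% interval, and filled points have an adjusted p under 0.05. Most snRNP proteins lie to the right of 0 (median 0.74 in Igf2bp3+/-) and most hnRNPs to the left (median -0.68).

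The same comparison in Igf2bp3-/- mice called fewer of the genes. Of the 66 genes, 6 were higher on polysomes (9.09%) and 15 lower (22.7%), against 10.2% higher and 11% lower over all genes, with a median of -0.09 for the 66 genes and -0.04 for all genes. Genes with the same sign in both genotypes numbered 61 of 66. The higher calls shared by both genotypes were Sf3b5, Snrpd2, Snrpe, Snrpf and Snrpg, which are 38.5% of the Igf2bp3+/- calls and 83.3% of the Igf2bp3-/- calls. The lower calls shared by both were 14, which are 50% and 93.3% of the calls, and they included Hnrnpab, Hnrnph1, Hnrnph2, Hnrnpm, Hnrnpu, Prpf6, Prpf8, Sf3b1, Sf3b2, Sf3b3, Srsf11, Srsf4 and Srsf6. Whether a gene's loading differed between the genotypes is the TE comparison, given below, and none of the 66 genes passed it.

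Snrpg was at 33.5, 31.1 and 34.5 FPKM in Igf2bp3-/- RNA-seq and at 118, 59.0 and 120 in RNC-seq (log2 difference 1.51, SE 0.26, adjusted p = 0.0063). Snrpf rose by 1.61 (SE 0.30), Sf3b5 by 1.30 (SE 0.23), Snrpd2 by 0.85 (SE 0.16) and Snrpd3, a further Sm protein gene, by 0.84 (SE 0.18). Snrpe had 17.0, 16.0 and 18.3 FPKM in RNA-seq and 64.8, 19.0 and 73.6 in RNC-seq (1.39, SE 0.43, adjusted p = 0.047), and replicate 2 lay just above the highest RNA-seq value. Prpf8 went from 16.6, 17.8 and 12.9 FPKM to 4.12, 8.78 and 4.75 (-1.47, SE 0.28, adjusted p = 0.0084). Sf3b1, with 31.8, 37.4 and 35.2 FPKM in RNA-seq and 15.4, 18.3 and 13.2 in RNC-seq, fell by 1.16 (SE 0.18, adjusted p = 0.0043). Sf3b3 (-1.38), Srsf4 (-1.32), Hnrnph2 (-1.26), Hnrnpm (-1.06) and Hnrnpu (-0.97) also fell.

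The Igf2bp3-/- counts depended on single libraries, as did the share of all genes called. The snRNP proteins had a median loading of 0.76, 0.74 and 0.70 across the RNC-seq libraries of Igf2bp3+/- and of 0.84, 0.15 and 0.94 across those of Igf2bp3-/-, so that replicate 2 was far below the others. In that library all 1303 genes with a coding length of up to 500 bases had a median of 0.28, against 0.50 to 0.79 in the other 5 RNC-seq libraries. The 3625 genes above 2000 bases had a median of -0.25 in it, against -0.90 to -0.59 in the other 5, and the Prpf8 value of 8.78 FPKM is from that library. Without it, 31 genes were called in Igf2bp3-/- (15 higher and 16 lower), which included all 21 of the calls made with it, and Snrpe rose by 2.01. Over all 18414 genes 34.2% were called in that run. Without RNA-seq replicate 1, 2 or 3 the Igf2bp3-/- calls numbered 10, 11 and 10. Of all genes 6.01, 6.81 and 8.83% were called in those runs. The calls lost in each case were Hnrnpab, Hnrnph1, Prpf6, Sf3b2, Snrpd3, Snrpe, Srsf11 and Srsf9. Snrpd2, Sf3b3, Hnrnpm and Hnrnpu were each lost in 2 of the 3. Snrpe was also lost without RNC-seq replicate 1 (1.13) or replicate 3 (1.03). For the SF3A and SF3B group the medians across the Igf2bp3-/- RNC-seq libraries were 0.27, -0.22 and -0.75, against -0.97, -0.57 and -0.57 in Igf2bp3+/-. The hnRNPs had -0.07, -0.38 and -0.44, against -0.65, -0.84 and -0.53. In both groups replicate 1 was the highest of the Igf2bp3-/- libraries.

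**Figure D3:**
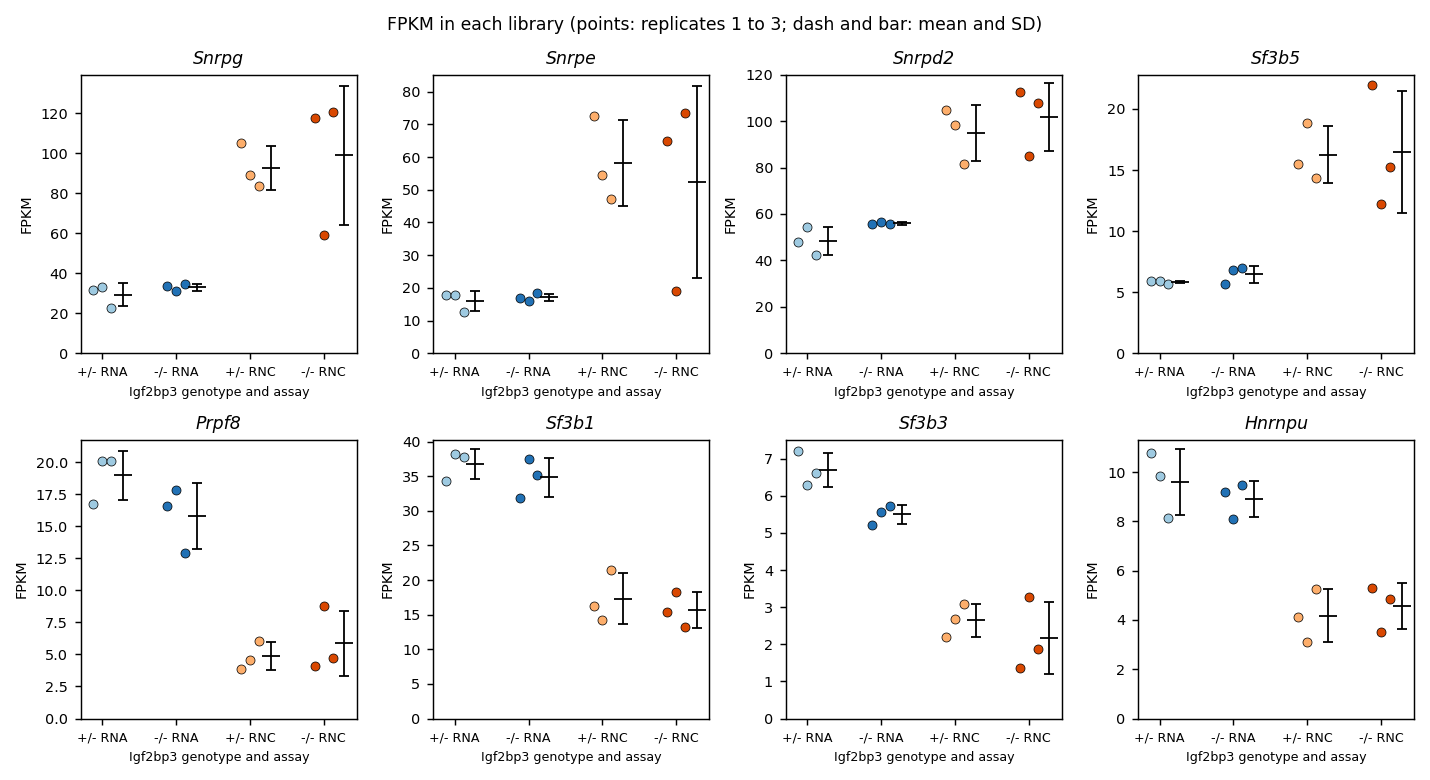
FPKM of 8 genes (Snrpg, Snrpe, Snrpd2, Sf3b5, Prpf8, Sf3b1, Sf3b3 and Hnrnpu) in each of the 12 libraries, by Igf2bp3 genotype and assay. Points are replicates 1 to 3 in order, and the dash and bar are the mean and SD. The upper genes sit higher in RNC-seq than in RNA-seq and the lower genes sit lower, and Snrpe in the Igf2bp3-/- RNC-seq replicate 2, at 19.0 FPKM, lies just above its highest RNA-seq value of 18.3.

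Loading within the group followed coding length, a property that the choice of genes did not use. The snRNP protein genes have a median coding length of 462 bases, the U2AF genes 717, the SR proteins 786, the hnRNPs 1347, the SF3A and SF3B subunits 1503 and the PRP factors 1995, from the annotation. Across the 65 tested genes with a coding sequence, loading correlated with log2 coding length at Pearson's r = -0.79 (Spearman's rho = -0.76) in Igf2bp3+/- and at r = -0.77 (rho = -0.73) in Igf2bp3-/-. Across all 12835 protein-coding genes the values were r = -0.55 (rho = -0.54) and r = -0.53 (rho = -0.52). The sets were not matched for level, which was higher in the splicing genes, so the values of r do not compare the strength of the relation. With transcript length in place of coding length, r was -0.56 for the 65 genes in Igf2bp3+/- and -0.46 in Igf2bp3-/-. These are correlations across genes of the same libraries, and genes are not independent replicates.

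In Igf2bp3+/- each of the 9 genes with a coding length of up to 500 bases was above 0, with values from 0.32 to 1.84 and a median of 1.09, and 7 were called higher. All protein-coding genes of that length had a median of 0.60, with 47.4% called higher. Each of the 13 genes above 2000 bases was below 0, from -1.96 to -0.14 with a median of -0.83, and 12 were called lower, while all genes of that length had a median of -0.82, with 59.9% called lower. Between those lengths the medians were 0.10 for 19 genes of 500 to 1000 bases (0.16 for all genes) and -0.60 for 24 genes of 1000 to 2000 bases (-0.24 for all genes). The classes in Igf2bp3-/- had medians of 0.85, 0.16, -0.21 and -0.75 for the splicing genes and of 0.52, 0.13, -0.16 and -0.53 for all genes. What links loading to coding length was not tested.

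**Figure D4:**
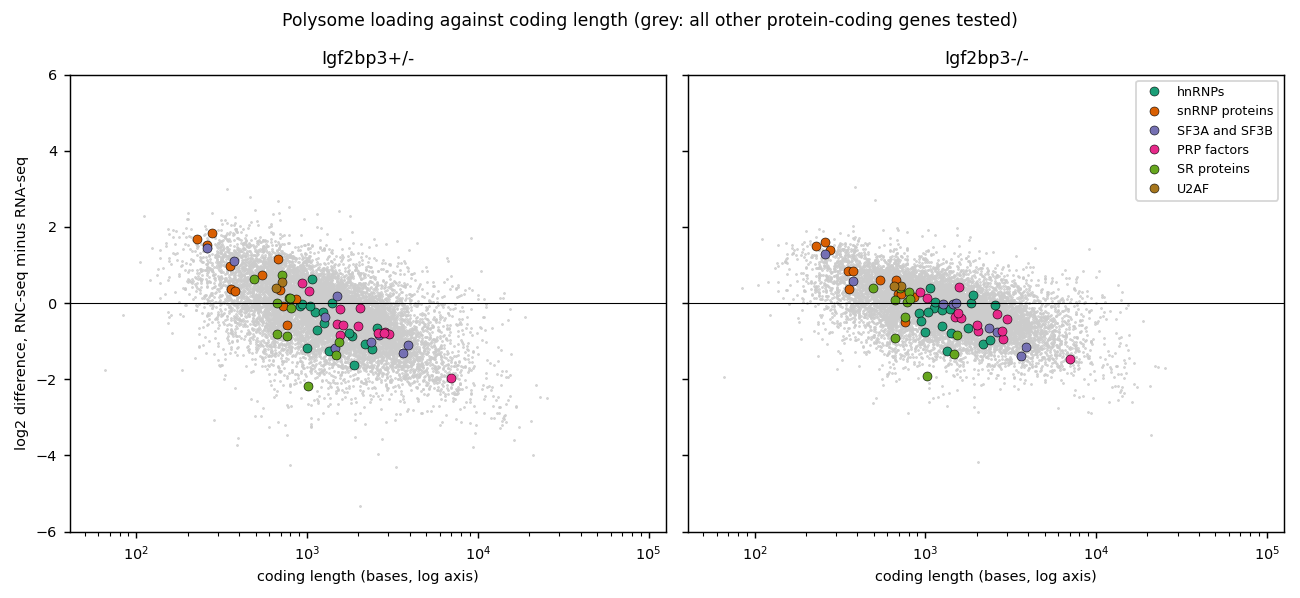
Polysome loading (log2 difference of RNC-seq minus RNA-seq, y axis) against coding length in bases (log axis) in Igf2bp3+/- (left) and Igf2bp3-/- (right). Grey points are all other protein-coding genes tested and coloured points the 65 splicing genes with a coding sequence, by role group. Loading falls with coding length in both genotypes, with r = -0.79 and r = -0.77 for the splicing genes.

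The remaining comparisons set Igf2bp3-/- against Igf2bp3+/-. In RNA-seq none of the 68 genes passed limma's test at an adjusted p under 0.05, where 0.197% of the 20352 genes tested were called higher and 0.059% lower. Without the adjustment, 5 of the 68 genes had a higher level at p under 0.05 (7.35%) and 2 a lower level (2.94%), against 10.4% and 5.32% of all genes. For 11 genes (16.2%) every knockout library was above every control library and for 4 (5.88%) every one was below, against 14.1% and 8.68% of all genes. These shares were near or below the background. The 7 genes at an unadjusted p under 0.05 became 13 without Igf2bp3-/- replicate 1. The share of all genes in that run is not given here, so 13 cannot be set against a background. The median log2 difference was 0.08 for the 68 genes and 0.05 for all genes.

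The genes with the smallest p in RNA-seq were of several roles. Sf3b4 had 76.6, 82.4 and 77.6 FPKM in Igf2bp3+/- and 96.1, 107 and 97.3 in Igf2bp3-/-, with no overlap (log2 difference 0.34, SE 0.083, unadjusted p = 0.0029, adjusted p = 0.16). Prpf19 was at 1.27, 1.43 and 1.24 FPKM against 0.871, 0.767 and 0.612, again with no overlap (-0.74, SE 0.19, unadjusted p = 0.0045, adjusted p = 0.18). Snrpc stood at 71.4, 69.9 and 54.7 FPKM against 81.0, 90.4 and 92.0 (0.43, SE 0.12, adjusted p = 0.19), and U2af1 at 4.24, 4.08 and 3.91 against 5.07, 4.96 and 5.89 (0.37, SE 0.12, adjusted p = 0.23). For Prpf4, a tri-snRNP protein gene, the difference was 0.31 (adjusted p = 0.29), for Snrpb 0.32 with overlapping libraries (adjusted p = 0.31), and for Sf3b3 -0.28 (adjusted p = 0.29). Sf3b4, Snrpc and U2af1 have near-identical copies in the genome, and Prpf19 has none. The 95% interval was -0.30 to 0.14 for Sf3b1, -0.36 to 0.14 for Hnrnpa1, -0.40 to 0.20 for Hnrnpu and -0.52 to 0.19 for Srsf1, and none of these passed the test.

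On polysomes none of 66 genes differed between genotypes at the adjusted limit, with 0.0787% of 19051 genes called higher and 0.0367% lower. Without the adjustment, 4 genes had a higher level at p under 0.05 (6.06%) and 0 a lower one, against 5.36% and 1.12% of all genes. The count of 4 became 2 without Igf2bp3+/- replicate 1, 1 without Igf2bp3-/- replicate 1, and 7 without Igf2bp3-/- replicate 3. Shares of all genes in those runs are not given here, so these counts cannot be set against a background. For 5 genes (7.58%) every knockout library was above every control library, and for 0 every one was below, against 9.44% and 1.85%. The median was 0.14 for the 66 genes and 0.13 for all genes, and with each library centred on its median these became 0.02 and 0.01. Without Igf2bp3-/- replicate 1 the median of the 66 genes was also 0.02. Sf3a2, an SF3A subunit gene, had 6.98, 14.7 and 8.86 FPKM in Igf2bp3+/- RNC-seq and 26.6, 28.5 and 13.0 in Igf2bp3-/- RNC-seq. The highest control value lay above the lowest knockout value (log2 difference 1.14, SE 0.34, adjusted p = 0.63). Of the annotated exon sequence of Sf3a2, 16.1% overlaps Plekhj1 on the opposite strand, which lay at 12.5 to 20.8 FPKM in RNC-seq. Hnrnpr had 1.35, 0.579 and 1.61 FPKM against 3.26, 2.0 and 2.1, without overlap (1.07, SE 0.37, adjusted p = 0.70). Hnrnpa3 had 1.51, 1.77 and 1.84 FPKM against 4.37, 3.20 and 2.07 (0.82, SE 0.30, adjusted p = 0.74), but it has 22 near-identical copies. Sf3b4 had 52.5, 69.2 and 64.1 FPKM against 127, 106 and 69.1, again with an overlap (0.67, SE 0.25, adjusted p = 0.74). For Sf3a2, Hnrnpa3 and Sf3b4 the spread among the Igf2bp3-/- libraries was wider than among those of Igf2bp3+/-.

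In the TE comparison, a genotype by assay interaction fitted to the 12 libraries, none of 66 genes passed, while 0.00543% of 18414 genes were called higher and 0% lower. With no adjustment, 4 had a higher TE at p under 0.05 (6.06%) and 0 a lower one, against 5.54% and 1.58% of all genes. That count became 2 without Igf2bp3+/- replicate 1 or Igf2bp3-/- replicate 2, 7 without Igf2bp3-/- replicate 3, and 8 when only its RNC-seq library was left out. For those runs too the shares of all genes are not given here, so the counts have no background beside them. The median was 0.05 for the 66 genes and 0.06 for all genes, and these turned to -0.08 and -0.07 with each library centred on its median. The median of the 66 genes was also below 0 without Igf2bp3+/- replicate 1 (-0.04) or 2 (-0.0057) and without Igf2bp3-/- replicate 1 (-0.11). Prpf19, whose RNA-seq values are given above, had 0.767, 0.633 and 0.691 FPKM in Igf2bp3+/- RNC-seq and 1.41, 1.15 and 0.667 in Igf2bp3-/- RNC-seq (TE difference 1.25, SE 0.37, 95% interval 0.45 to 2.04, adjusted p = 0.69). Hnrnpr had 4.76, 2.62 and 3.65 FPKM in Igf2bp3+/- RNA-seq and 3.06, 3.45 and 0.782 in Igf2bp3-/- RNA-seq, with a low replicate 3 (TE difference 1.84, SE 0.67, adjusted p = 0.69). Sf3a2 (1.13, SE 0.46) and Hnrnpl (0.86, SE 0.36) had the same adjusted p. The opposite-strand overlap of Sf3a2 given above applies here too. The remaining 62 genes had an unadjusted p of 0.05 or more.

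**Figure D5:**
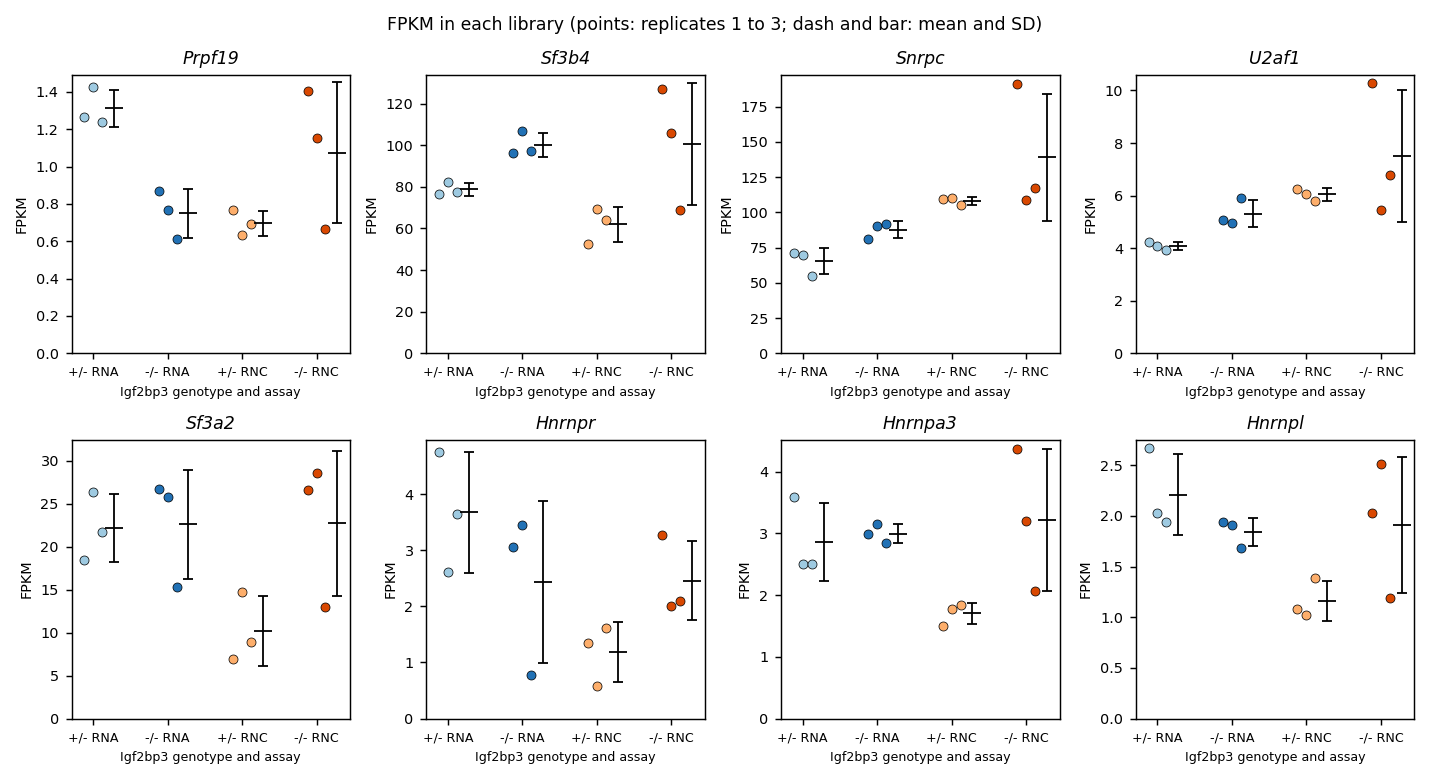
FPKM of the 8 genes Prpf19, Sf3b4, Snrpc, U2af1, Sf3a2, Hnrnpr, Hnrnpa3 and Hnrnpl in each of the 12 libraries, by Igf2bp3 genotype and assay. Points are replicates 1 to 3 in order, and the dash and bar are the mean and SD. In RNA-seq Prpf19 lies lower and Sf3b4 higher in Igf2bp3-/- without overlap, and for Sf3a2 and Sf3b4 the Igf2bp3-/- RNC-seq points scatter more widely than those of the other groups; none of the differences passed the adjusted limit.

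Markers of somatic cells differed in level between the genotypes. The 6 Leydig cell markers summed to 15.2 to 22.5 FPKM in Igf2bp3+/- RNA-seq and 48.4 to 54.7 in Igf2bp3-/- RNA-seq, and to 6.71 to 14.3 and 51.4 to 102 in RNC-seq. The 5 peritubular markers summed to 2.43 to 2.93 against 6.50 to 8.12 FPKM in RNA-seq, the 6 Sertoli markers to 1.62 to 2.05 against 2.46 to 2.69, and the 6 blood and macrophage markers to 5.79 to 6.59 against 12.1 to 14.2. All markers of these lists were found in the table. In RNA-seq the mean was higher in Igf2bp3-/- for 6 of 6 Leydig, 3 of 5 peritubular, 5 of 6 Sertoli and 6 of 6 blood and macrophage markers. Germ cell lists were not level either. In RNA-seq the mean was higher for 6 of 6 round spermatid, 1 of 6 elongating spermatid, 5 of 6 spermatocyte and 2 of 6 spermatogonia markers. In RNC-seq it was higher for 6, 6, 3 and 4 of 6 markers of these lists. Among the Igf2bp3-/- RNA-seq libraries the Sertoli markers Gata4 and Rhox5 were listed at 0 in 1 and in 2, and the peritubular marker Tagln in 1. Splicing factors are made by somatic cells too, and the part of these cells in the genotype differences above was not tested.

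The wider splicing machinery gave a background list of 100 other genes, of which 99 were in the table. In RNA-seq 1 of 97 tested was lower in Igf2bp3-/- and 0 were higher. It was Rbmxl2, a testis-specific relative of the hnRNP G gene, with a log2 difference of -1.14 (SE 0.16, adjusted p = 0.035). At an unadjusted p under 0.05, 8 were lower (8.25%) and 10 higher (10.3%), against 5.32% and 10.4% of all genes. In RNC-seq and TE none of 96 passed. At an unadjusted p under 0.05, 7 were higher (7.29%) and 0 lower in RNC-seq, against 5.36% and 1.12% of all genes. In TE 10 were higher (10.4%) and 2 lower (2.08%), against 5.54% and 1.58%. Loading in Igf2bp3+/- was higher for 19 (19.8%) and lower for 41 (42.7%) of the 96, with a median of -0.32. Over all genes the shares were 18.2% and 25.2%. Magoh, of the exon junction complex, rose by 1.78 (SE 0.18), Bcas2, a partner of PRPF19, by 1.21 (SE 0.14) and Cwc15 by 1.28 (SE 0.15). Snrnp200, the large helicase of the U5 snRNP, fell by 2.54 (SE 0.20), Srrm2 by 2.27 (SE 0.14) and Son by 2.26 (SE 0.16). Rbmxl2, named here after its values were seen, had the largest fall of the list, by 3.04 (SE 0.26). In Igf2bp3-/- 12 were higher (12.5%) and 24 lower (25%), against 10.2% and 11% of all genes, with a median of -0.26. Bcas2 (1.03), Phf5a (0.94), which encodes a small SF3B subunit, and Snrnp25 (0.90) rose, and Son (-1.71), Snrnp200 (-2.11) and Rbmxl2 (-1.95) fell.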

How the data were processed

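RNA-seq and RNC-seq libraries of round spermatids were analysed, 3 per genotype and assay. By the study's methods each replicate was a mouse, and each extract was divided into the RNA-seq input and the polysome gradient, so RNA-seq and RNC-seq libraries share mice; which library goes with which is given only as a replicate number. Control columns are named WT in the table and Igf2bp3+/- in the sample titles, which were followed. The authors deposited a table of FPKM per gene symbol. By their methods and processing notes, reads were trimmed with Trim Galore 0.6.6, aligned to GRCm38 (mm10) with HISAT2 and quantified with StringTie 2.1.7; the annotation release and use of strand are not given in the sources used here. Read counts, which the authors tested with DESeq2, are not used here, so absolute depth is unknown and no counting interval was computed. A relative depth was estimated from the most frequent product of FPKM and transcript length among single-transcript genes. It was 1.0 in Igf2bp3-/- RNA-seq replicate 1 and 0.38 to 0.55 in the other libraries. The labels and the methods name different library kits and sequencers.

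From these values, 25 symbols turned into dates (0.0995% of summed FPKM) were left out. Genes with a mean FPKM above 0.1 in the samples of a comparison were tested on log2(FPKM + 0.1) with limma 3.58.1 (R 4.3.3; eBayes with trend; Benjamini-Hochberg over all genes tested; adjusted p under 0.05), after a check on simulated data. Fold changes on this scale understate changes of low genes. For TE and loading a gene had to pass in both assays. Coding lengths, positions, overlaps and near-identical copies (BLAST 2.17.0, with an identity of 95% or more along 50% or more of the transcript) came from GENCODE M21, where all 68 symbols matched. Of the 68 genes, 12 have such a copy. Taken over all exons annotated for a gene, 7 overlap another gene in sense by 1% or more and 21 in antisense. Such values are uncertain.

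1 of the 68 genes is counted but its own values are not reported here. The genes, lists and naming rules were chosen with earlier results of these data known. Named were the 5 highest and 5 lowest genes, the extremes of each role group and well-studied members; for genotype, up to 5 genes in each direction by unadjusted p under 0.05; for loading, up to 8 in each direction by size among called genes with a mean of at least 1 FPKM in both assays and no overlap; and up to 3 other splicing genes in each direction by p. Alternatives were a pseudocount of 1, no filter or a mean above 1 FPKM, median centring, quantile normalization, library weights, a replicate block, a fit over all 12 libraries, an unadjusted p under 0.05 with an absolute log2 change over 1.5 (stated in the study's methods for expression), and leaving out each replicate. TE without each RNC-seq library, and the same p with a fold change over 1.5 (stated in a legend of the study), were added after seeing the data.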

Additional observations from a re-analysis of the deposited data

How the results depend on the processing

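No difference of a single gene that passed the adjusted limit changed direction under any alternative run. For genotype, the count of genes past the adjusted limit stayed at 0 in RNA-seq, RNC-seq and TE under every alternative with that limit, while an unadjusted p under 0.05 with an absolute log2 change over 1.5 gave 0, 0 and 1 (Hnrnpr). The same p with a fold change over 1.5 gave 1 gene in RNA-seq (Prpf19), 4 in RNC-seq (Hnrnpa3, Hnrnpr, Sf3a2 and Sf3b4) and 4 in TE (Hnrnpl, Hnrnpr, Prpf19 and Sf3a2). For loading the former gave 7 genes in Igf2bp3+/- and 3 in Igf2bp3-/-, and the latter 37 and 28; the study states both for expression, not for TE or loading. Shares of all genes at these limits are not given here, so the counts cannot be set against a background. Leaving out 1 library gave 31 to 44 calls for loading in Igf2bp3+/- and 10 to 31 in Igf2bp3-/-, and the cause was not tested. Over all genes the same runs called 33.6 to 45% in Igf2bp3+/- and 6.01 to 34.2% in Igf2bp3-/-. Without a filter on low FPKM, and with quantile normalization, Snrpe in Igf2bp3-/- kept its size (1.39 and 1.32) and lost its call. Between RNA-seq and RNC-seq, libraries with the same number had deviations that correlated at 0.21, -0.10 and 0.20 in Igf2bp3+/- and at -0.05, 0.17 and 0.13 in Igf2bp3-/-, so the replicate numbers alone were not taken to pair the libraries, although by the methods both assays used the same extracts. With the replicate block 40 genes were called for loading in Igf2bp3+/- (Prpf4b was lost), 23 in Igf2bp3-/- (Sf3a1 and Snrpert were gained), and 0 in each genotype comparison. Over all genes that block called 42.2% for loading in Igf2bp3+/- and 22.3% in Igf2bp3-/-. Over 68 genes, the number at an unadjusted p under 0.05 in RNA-seq ran from 2 (fit over all 12 libraries) to 13. The shares of all genes in those runs are not given here, so this range has no background beside it. Absolute depth is unknown, and genes under 1 FPKM, such as U2af2 and Hnrnpul2, limit what can be read from them.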
